A study of Homo sapiens with 12 samples.

Results

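Baseline translation was described in MM6 (MonoMac6) cells that carried the control hairpin shNS. MM6 is an established human acute myeloid leukaemia (AML) line of monocytic type. Of the 12 libraries of the series, 4 came from shNS cells, 2 of ribosome footprints and 2 of mRNA. The other 8 came from cells with 1 of 2 knockdown hairpins, shBP2-1 or shBP2-2, again with 2 libraries per hairpin and assay. Both hairpins target IGF2BP2, which binds RNA that carries the m6A mark. All cells had been given lentivirus for 48 h and puromycin for 2 days, so the shNS cells are transduced and selected cells and not untouched MM6 cells. Footprint cells were held in cycloheximide for 15 min before harvest. A gene was used when its deposited value averaged at least 10 in the shNS footprint pair and at least 10 in the shNS mRNA pair. This held for 9991 of 19951 gene entries, of which 9889 are protein-coding in RefSeq. For each gene the value in a library was divided by the library total, and the ratio is the log2 of the footprint share over the mRNA share. A ratio of 0 means that a gene takes the same share of both libraries.

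A ribosome shields the stretch of mRNA it sits on from nuclease, and sequencing the shielded fragments shows where and how often ribosomes sit. Set against the mRNA of the same cells, footprints report how densely a transcript is loaded. Loading is known to be set mostly at initiation, through the 5' end, upstream open reading frames (uORFs, short reading frames ahead of the main one) and proteins that bind the 5' leader. Footprints come from the coding part and mRNA reads from the whole transcript. No coding or transcript lengths were used, so ratios also carry the coding share of each transcript, and its part in any result was not tested.

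Footprint totals were 4884067 and 4423843 in shNS, and mRNA totals were 22685066 and 22870251. The footprint totals of the knockdown libraries were lower, between 456338 and 2583384, so ratios there may be less precise. Replicates of an assay had a Pearson correlation over the 9991 genes of 0.980 for footprints and 0.992 for mRNA (log2 scale, a description across genes, which are not independent replicates). Monocytic markers were present, 14 of 15 at a mean mRNA value of at least 10, and CD4 was at 0 or 4. Their summed level per 1000000 of a library total was 14430 and 15310 in footprints, against 5864 and 5704 in mRNA. LYZ alone made up 10530 and 11530 of the footprint sum, against 3940 and 3827 of the mRNA sum. CD33, CD68, MPO, SPI1 and LYN each had a smaller share of both footprint libraries than of either mRNA library. T and NK cell markers summed to 145 and 125 per 1000000 in footprints, against 99.3 and 98.4 in mRNA. Of these 6 markers 3 were at 0 in both mRNA libraries, and NKG7 made up most of each sum. NKG7 had values of 692 and 530 in footprints, against 2131 and 2127 in mRNA. B cell, erythroid and megakaryocyte, and epithelial and fibroblast markers summed to between 0.205 and 9.27 per 1000000 in every shNS library. In such bulk samples fewer cells of a type and less RNA per cell cannot be told apart. The targeted gene IGF2BP2 had footprint values of 575 and 526 and mRNA values of 2471 and 2357 in shNS.

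The ratio of footprint share to mRNA share differed widely between genes. The central 90% of genes, from the 5th to the 95th percentile, spanned ratios of −2.64 to 1.27, a 15.0-fold range, and the middle 50% spanned −1.28 to 0.34, a 3.06-fold range. The median SE of a gene's ratio was 0.11. The median ratio was −0.43, with 3618 genes above 0 and 6373 below it. limma's treat test asks whether a ratio is more than 2-fold from 0. At a Benjamini-Hochberg adjusted p under 0.05 it called 496 genes higher, or 4.96% of the genes tested, and 2152 lower, or 21.5%. The 1000 genes of lowest mRNA, with mean values of 10 to 191, had 94 higher and 0 lower (median 0.14). The next 999 had 27 higher and 100 lower (median −0.49). The minimum of 10 is a larger share of a footprint library than of an mRNA library. It therefore limits how low a ratio can be among genes of low mRNA. In every called gene the footprint shares of both libraries lay on the same side of both mRNA shares, as they did in 9012 genes in all. With the median gene instead set at 0, a shift of 0.43, the calls split into 1074 higher and 1284 lower. At that setting DDIT3, AZIN1, TPT1, EIF4G2, PGAM1, H2AX, GPX4, GPT2 and INSIG1, which were lower on library totals, were not called, and MT-ND6, TFRC, ACO1, EIF5A, NPM1 and RPS6 were called higher. All ratios, folds and adjusted p-values that follow are from the fit on library totals, an error after ± is the SE of a ratio, and each assay had n = 2.

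**Figure D1:**
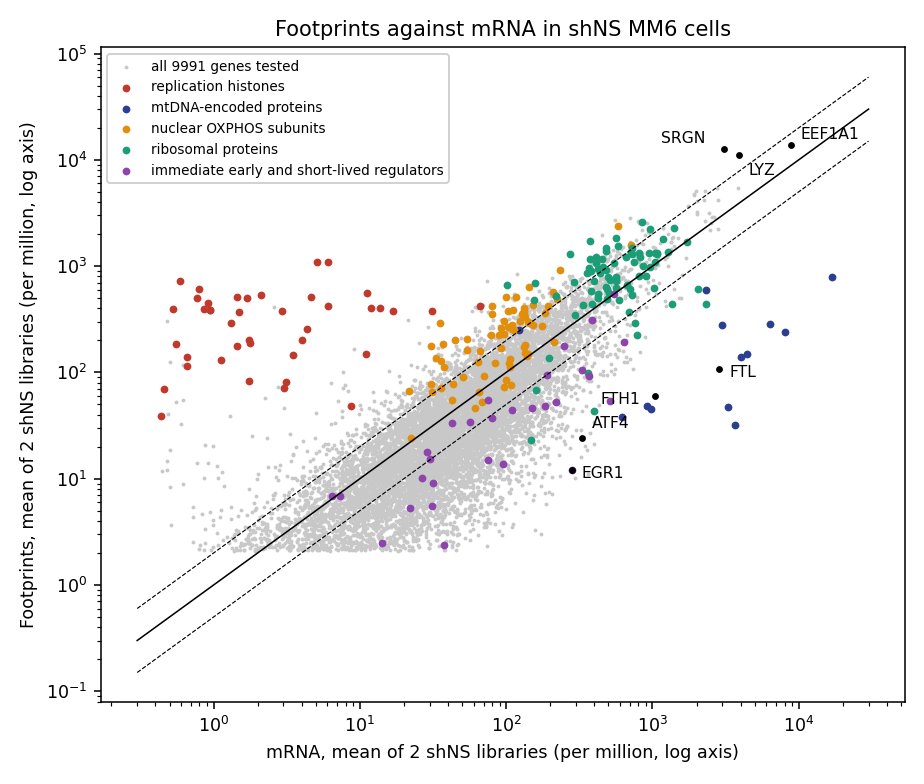
Mean footprint share against mean mRNA share of the 9991 genes tested, each per 1000000 of the shNS library total on log axes. The solid line marks equal shares and the broken lines 2-fold differences. Replication histones lie far above the lines, and 12 of 13 mtDNA-encoded genes, FTL, FTH1, ATF4 and EGR1 lie below them.

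Histone and mitochondrial genes stood at the ends of the range. By the naming rule 10 of the 15 highest protein-coding genes were replication histones and 10 of the 15 lowest were encoded in mtDNA. The other high ones were U2AF1L5, a copy of a splicing factor gene at 3.86 ± 0.10 whose reads may belong to either copy, OSTC at 3.28 ± 0.09, SERPINB10 at 3.06 ± 0.17, ZNF460 and NDUFA1. The low ones outside mtDNA included FTL, FTH1, ATF4 and P2RY1. Replication histones package newly made DNA and their mRNAs end in a stem-loop instead of a poly(A) tail. Of 63 on the list 41 were tested and 40 were called higher, with a median ratio of 6.93, beside 4.96% higher among all genes. Together they took 1.74% and 1.61% of the footprint totals, against 0.0238% and 0.0244% of the mRNA totals. H4C8 had values of 5223 and 4966 in footprints, against 118 and 114 in mRNA, a ratio of 7.74 ± 0.07 (adjusted p = 5.53e-08). The linker histone gene H1-2 had 2115 and 1656 in footprints, against 299 and 325 in mRNA, a ratio of 4.87 ± 0.09 (adjusted p = 8.89e-07). H4C11 was the exception, with 1412 and 0 in footprints against 115 and 43 in mRNA, and was not called. Histone genes are near-identical copies, so the split of reads between them is uncertain. The labels give the RNA as polyA RNA with an mRNA library kit. The polyadenylated histone variants had a median ratio of −1.24, with 4 of 10 tested lower and none higher, beside 21.5% lower among all genes. H2AZ1, a variant found at promoters, had a ratio of 0.57 ± 0.05 and was not called, while H2AX, which marks DNA breaks and whose mRNA can end in either way, was lower at −1.74 ± 0.13 (adjusted p = 0.00308). The part of poly(A) selection in these ratios was not tested.

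The 13 proteins encoded in mtDNA are subunits of the respiratory chain and are made by mitochondrial ribosomes, which cycloheximide does not act on. They took 0.322% and 0.267% of footprints, against 5.46% and 5.48% of mRNA. Of the 13 genes 12 were lower, with a list median of −4.42, beside 21.5% lower among all genes. MT-CO1, a core subunit of cytochrome c oxidase, had values of 4218 and 3173 in footprints, against 382331 and 386667 in mRNA. That is a share 21.4-fold lower in footprints (ratio −4.42 ± 0.08, adjusted p = 9.25e-07). The lowest ratio of the 13 was that of MT-ND2, at −6.88 ± 0.19, and the called gene nearest to 0 was MT-ND5, at −1.96 ± 0.09. MT-ND6, the one protein gene read from the opposite DNA strand, had 1244 and 1106 in footprints, against 2862 and 2725 in mRNA. Its ratio of 1.04 ± 0.06 was not called (adjusted p = 0.666).

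Both ferritin subunits had few footprints for their mRNA. Ferritin stores iron, and in iron-poor cells iron regulatory proteins bind a stem-loop, the iron-responsive element, near the 5' end of its mRNAs and block initiation. The loop of that element has the letters CAGTGN, which are present within the 50 genomic bases after the start listed for FTL in RefSeq (GRCh38.p14, chr19:48965333-48965358, plus strand). The stretch is shown because FTL, the light chain, was among the lowest genes outside mtDNA, and the loop letters are in capitals.
FTL: gtctcttgcttcaaCAGTGTttggac
FTL had 531 and 466 in footprints, against 65723 and 64716 in mRNA, a share 26.7-fold lower in footprints (ratio −4.74 ± 0.05, adjusted p = 8.16e-08). The heavy chain FTH1 had 308 and 246 in footprints, against 24035 and 23264 in mRNA, a ratio of −4.13 ± 0.07 (adjusted p = 7.04e-07). Both libraries of each assay were close to each other for both genes. This speaks only to the spread between libraries, and how reads were assigned to these genes was not tested. The transferrin receptor TFRC brings iron into the cell and carries its iron-responsive elements in the 3' untranslated region. It had 7465 and 7274 in footprints, against 17461 and 18455 in mRNA, a ratio of 1.01 ± 0.05 that was not called. ACO1, one of the iron regulatory proteins, had a ratio of 1.13 ± 0.08 and was not called either (adjusted p = 0.227). Of 10 tested genes on the iron-responsive element list, 3 were lower and none higher, beside 21.5% lower and 4.96% higher among all genes. The list median of −0.42 was close to that of all genes. On its own CAGTGN says little, since 6.36% of the 35116 start windows hold it on the plus strand of the gene. The 289 tested genes with 1 listed start that hold it had a median of −0.22, beside −0.36 for the other 5591.

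Genes known to be held back by uORFs were mostly lower. Of 23 tested on that list 13 were lower and 1 higher, with a median of −1.43, beside 21.5% lower among all genes. ATF4, the transcription factor of the integrated stress response, has leader uORFs that restrict its translation in unstressed cells. AMD1 makes the polyamine precursor decarboxylated S-adenosylmethionine, and a short uORF in its leader stalls ribosomes when polyamines are plentiful. The first start that RefSeq lists for each gene is followed within 50 genomic bases by a complete short reading frame on the plus strand of the gene. Both are shown with the frame from ATG to stop in capitals (GRCh38.p14, ATF4 at chr22:39520573-39520602, AMD1 at chr6:110874789-110874818, both plus strand).
ATF4: tgcccgcccacagATGTAGttttctctgcg
AMD1: acacagtATGGCCGGCGACATTAGCTAGcg
ATF4 had 121 and 105 in footprints, against 7511 and 7511 in mRNA, a share 13.5-fold lower in footprints (ratio −3.75 ± 0.06, adjusted p = 7.84e-07). Its relatives in the stress response were lower too. ATF5 had a ratio of −2.48 ± 0.11 (adjusted p = 4.88e-05), and PPP1R15A (GADD34), the inducible phosphatase subunit that ends the response, had −1.91 ± 0.12 (adjusted p = 0.000726). DDIT3 (CHOP), the pro-apoptotic target of ATF4, had only 27 and 23 in footprints and a ratio of −1.82 ± 0.17 (adjusted p = 0.00588). That call was lost without the first mRNA library (adjusted p = 0.105) or the second (0.139), and adjusted p ran from 1.96e-11 to 0.139 over 14 alternatives. PPP1R15B, the constitutive counterpart of GADD34, was not called at −0.65 ± 0.06. The higher member was EPRS1, the glutamyl-prolyl-tRNA synthetase, at 1.19 ± 0.05 (adjusted p = 0.0133), and it was not called without the first mRNA library (adjusted p = 0.194) or without the second (0.069). Over 15 alternatives its adjusted p ran from 1.84e-06 to 0.194. A reading frame contained in the 50 bases is found in 10.2% of windows. The 304 tested genes with 1 listed start that hold one had a median of −0.52, beside −0.33 for the other 5576.

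Polyamine genes were low beyond AMD1. Of 14 tested 9 were lower and none higher, with a median of −1.43, beside 21.5% lower among all genes. AMD1 had 217 and 182 in footprints, against 5170 and 5410 in mRNA, a ratio of −2.43 ± 0.07 (adjusted p = 9.96e-06). ODC1, the decarboxylase that makes putrescine, had 171 and 143 in footprints, against 4001 and 4135 in mRNA, a ratio of −2.40 ± 0.07 (adjusted p = 1.4e-05). OAZ1, the antizyme that sends ODC1 to the proteasome and is made through a ribosomal frameshift, was lower at −1.73 ± 0.08 (adjusted p = 0.00032). AZIN1, the antizyme inhibitor, was lower at −1.43 ± 0.08 (adjusted p = 0.00387). EIF5A, the factor that polyamine-derived hypusine activates, was not called at 0.89 ± 0.09. Synthesis enzyme, antizyme and antizyme inhibitor were thus all below the share of their mRNA.

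Immediate early and short-lived regulators also had low ratios. Of 39 on the list 29 were tested, and 16 were lower and none higher (median −1.65), beside 21.5% lower among all genes. EGR1, a zinc finger factor induced within minutes of growth stimulation, had 67 and 46 in footprints, against 6388 and 6394 in mRNA. Its ratio was −4.53 ± 0.13 (adjusted p = 4.54e-06), a share 23.1-fold lower. Both subunits of the AP-1 transcription factor were lower, FOS, chosen after its values were seen, at −3.24 ± 0.06 (adjusted p = 1.53e-06) and JUN at −2.75 ± 0.09 (adjusted p = 1.53e-05). BTG2, which slows proliferation and promotes mRNA deadenylation, was at −3.88 ± 0.25 (adjusted p = 0.000112) with footprint values of only 9 and 13. MCL1, the short-lived survival protein, was lower at −1.74 ± 0.06 (adjusted p = 0.000124). MYC, which drives growth, had 2711 and 2396 in footprints, against 12594 and 12363 in mRNA, and its ratio of 0.00 ± 0.05 was not called. FOSB, with 7 and 3 in footprints against 1215 and 1100 in mRNA, and KLF4, with 11 and 5 against 765 and 795, were below the footprint minimum and not tested.

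**Figure D2:**
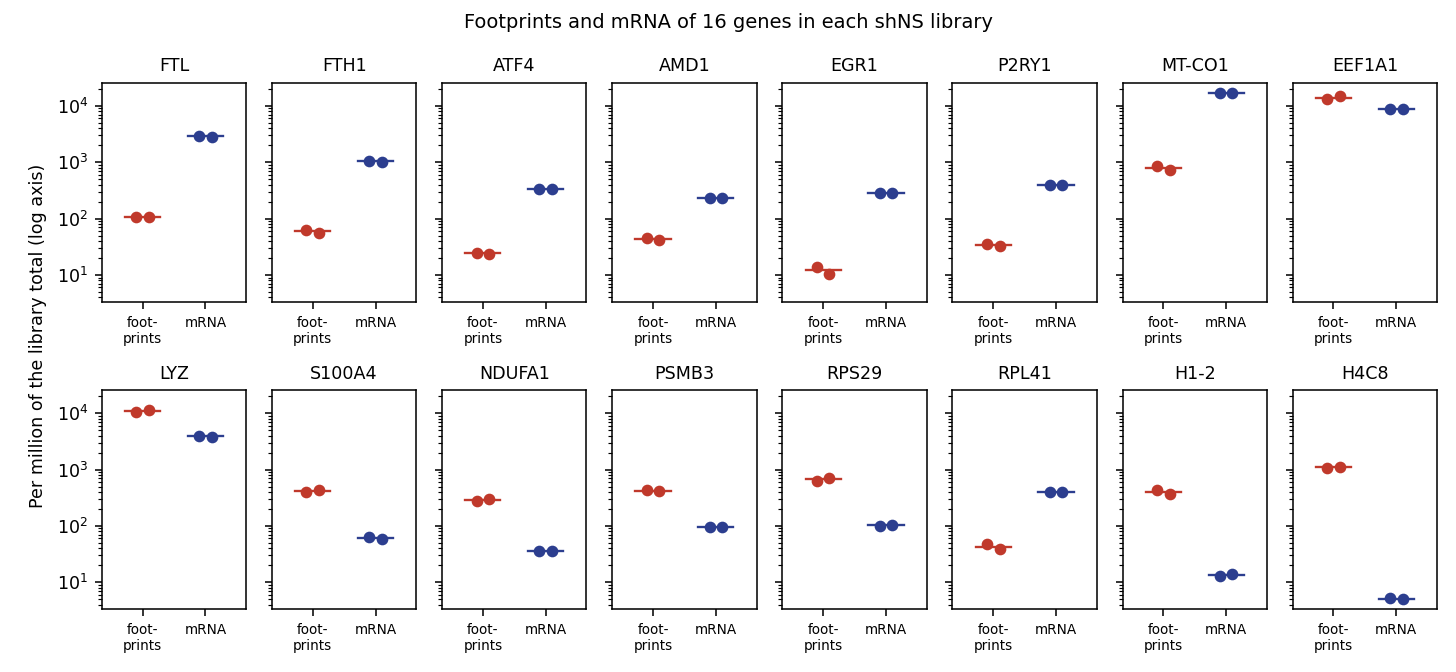
Footprints and mRNA of 16 genes in each of the 4 shNS libraries, per 1000000 of the library total on a shared log axis. Points are libraries and lines their means. The footprint and mRNA points of each gene are apart, with footprints below mRNA for FTL, FTH1, ATF4, AMD1, EGR1, P2RY1, MT-CO1 and RPL41 and above it for the other 8.

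Ribosomal protein genes were split between both directions. Their mRNAs, like those of several translation factors, begin with a terminal oligopyrimidine (TOP) tract, a C followed by a run of C and T, through which mTOR controls their translation. Of the 47 large-subunit genes 9 were higher and 6 lower (median 0.41), and of the 32 small-subunit genes 11 were higher and 2 lower (median 0.61). Of 27 other TOP genes 1 was higher and 1 lower (median 0.49), beside 4.96% higher and 21.5% lower among all genes. The 30 genomic bases from the listed start (RefSeq, GRCh38.p14) are shown for 6 TOP genes with the tract in capitals, to compare genes of differing ratio. They lie at chr2:101002289-101002318 on the plus strand for RPL31, chr9:19380207-19380236 on the minus strand for RPS6 and chr6:73521003-73521032 on the minus strand for EEF1A1. The others lie at chr13:45341154-45341183 on the minus strand for TPT1, chr12:120201082-120201111 on the minus strand for RPLP0 and chr12:56116633-56116662 on the plus strand for RPL41.
RPL31: CTTCCTTTCCaacttggacgctgcagagtg
RPS6: CTCTTTTCCgtggcgcctcggaggcgttca
EEF1A1: CTTTTTCgcaacgggtttgccgccagaaca
TPT1: CTTTTCCgcccgctcccccctccccccgag
RPLP0: CCTTCTCTCgccaggcgtcctcgtggaagg
RPL41: CTCTCggccttagcgccatttttttgggtg
RPL31 was higher at 2.21 ± 0.05 (adjusted p = 6.35e-06), with 8122 and 7897 in footprints against 8510 and 8427 in mRNA. RPS6, the S6 kinase target, was not called at 0.72 ± 0.04, nor was EEF1A1, the factor that delivers aminoacyl-tRNA, at 0.65 ± 0.06. EEF1A1 had 64133 and 64943 in footprints, against 202642 and 199704 in mRNA. TPT1, a growth-related TOP gene, was lower at −1.22 ± 0.05 (adjusted p = 0.00718). Its adjusted p was 0.0815 without the second mRNA library, and from 1.75e-09 to 1 over 15 alternatives. PFDN5, a subunit of the chaperone prefoldin, was the higher TOP gene at 1.58 ± 0.05 (adjusted p = 0.000161). EEF2, NPM1 and PABPC1 were not called. EEF2, the translocation factor, was at 0.23 ± 0.05, NPM1, a nucleolar chaperone, at 0.96 ± 0.04 and PABPC1, the poly(A)-binding protein, at −0.96 ± 0.05. RPLP0, the stalk protein, was lower at −1.63 ± 0.06 (adjusted p = 0.000117). RPL41, which encodes a very short peptide, had 229 and 172 in footprints, against 9015 and 9080 in mRNA, a ratio of −3.21 ± 0.09 (adjusted p = 6.4e-06). Elsewhere in the ribosome RPS29 was higher at 2.71 ± 0.07 (adjusted p = 5e-06) and RPL23A at 2.26 ± 0.04 (adjusted p = 3.18e-06), while RPS26 was lower at −2.65 ± 0.09 (adjusted p = 1.51e-05) and RPL21 at −2.42 ± 0.18 (adjusted p = 0.000703). These genes have many processed pseudogenes, so the assignment of their reads is uncertain.

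A pyrimidine start, searched as a C at base 1 and C or T at bases 2 to 5 on the gene's own strand, was held by 4.07% of the 35116 windows. Among tested genes with 1 listed start, the 342 with it had a median ratio of −0.13, beside −0.36 for the other 5538. Within the 342, the ribosomal and TOP lists differed from the rest. Their 58 genes with a pyrimidine start had a median of 0.40, and the 284 other genes with one had a median of −0.35. Among genes on those lists the 14 without a pyrimidine start at the listed position had a median of 0.56.

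Most initiation factor genes were not called, and a few were far from 0. Of 40 initiation factor genes 3 were higher and 4 lower, with a median of 0.47, beside 4.96% higher and 21.5% lower among all genes. EIF4EBP2, an mTOR-controlled repressor of the cap-binding protein, had 88 and 63 in footprints, against 7315 and 7389 in mRNA. Its ratio was −4.31 ± 0.11 (adjusted p = 3.45e-06), a share 19.9-fold lower. EIF1AX, which helps the small subunit scan, was lower at −2.0 ± 0.06 (adjusted p = 1.81e-05), and EIF4G2 (DAP5), whose reading frame begins at a GTG codon, was lower at −1.53 ± 0.04 (adjusted p = 1e-04). EIF3I, a subunit of the initiation factor eIF3, was higher at 1.53 ± 0.06 (adjusted p = 0.000319). EIF4A1, the helicase that unwinds leaders, was higher at 1.26 ± 0.05 (adjusted p = 0.00615). Its adjusted p was 0.0665 without the second mRNA library, and from 2.12e-11 to 0.0665 over 15 alternatives. Of 20 cytosolic aminoacyl-tRNA synthetases EPRS1 alone was higher and none was lower, with a median of 0.60.

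Nuclear-encoded subunits of oxidative phosphorylation, chaperones and proteasome subunits had the highest medians after the replication histones among the lists with at least 5 tested genes. Of 72 nuclear-encoded subunits of oxidative phosphorylation 38 were higher and none lower (median 1.24), beside 4.96% higher among all genes. Proteasome subunits had 17 of 34 higher and none lower (median 1.17), and the chaperone list, which holds cytosolic and mitochondrial ones, had 15 of 24 higher and none lower (median 1.18). NDUFA1, a small subunit of complex I, had 1342 and 1350 in footprints, against 806 and 808 in mRNA, a share 8.17-fold higher in footprints (ratio 3.03 ± 0.07, adjusted p = 3.98e-06). NDUFB2, of the same complex, had a ratio of 2.56 ± 0.11 (adjusted p = 4.54e-05) and COX6C, of cytochrome c oxidase and chosen after its values were seen, 2.36 ± 0.05 (adjusted p = 4.75e-06). The list medians of nuclear and mtDNA-encoded subunits of these complexes, 1.24 and −4.42, lay on opposite sides of 0. PSMB3, a subunit of the proteasome core, had 2104 and 1831 in footprints, against 2158 and 2154 in mRNA, a ratio of 2.16 ± 0.05 (adjusted p = 8.2e-06). PSMA2, another core subunit, was at 2.19 ± 0.06 (adjusted p = 1.52e-05). CCT8, part of the chaperonin that folds actin and tubulin, was higher at 1.60 ± 0.05 (adjusted p = 0.000102), as was HSPE1, the mitochondrial co-chaperonin, at 1.60 ± 0.09 (adjusted p = 0.00156).

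The mitochondrial ribosome had 17 of 77 genes higher and none lower (median 0.60), beside 4.96% higher among all genes. MRPS28 was at 2.07 ± 0.13 (adjusted p = 0.000527). The TCA cycle had 3 of 23 higher and none lower (median 0.60). Glycolysis had 4 of 19 higher and 1 lower (median 0.68). LDHB, a lactate dehydrogenase subunit, had 13264 and 12030 in footprints, against 12460 and 12875 in mRNA, a ratio of 2.29 ± 0.04 (adjusted p = 2.81e-06). PGK1, a kinase that makes ATP in glycolysis, was higher at 1.46 ± 0.07 (adjusted p = 0.00121), and GAPDH, the enzyme just before it, was not called at 0.68 ± 0.04. PGAM1, the next enzyme, was lower at −1.53 ± 0.12 (adjusted p = 0.00997). PGAM1 has pseudogene copies, so its ratio is uncertain.

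**Figure D3:**
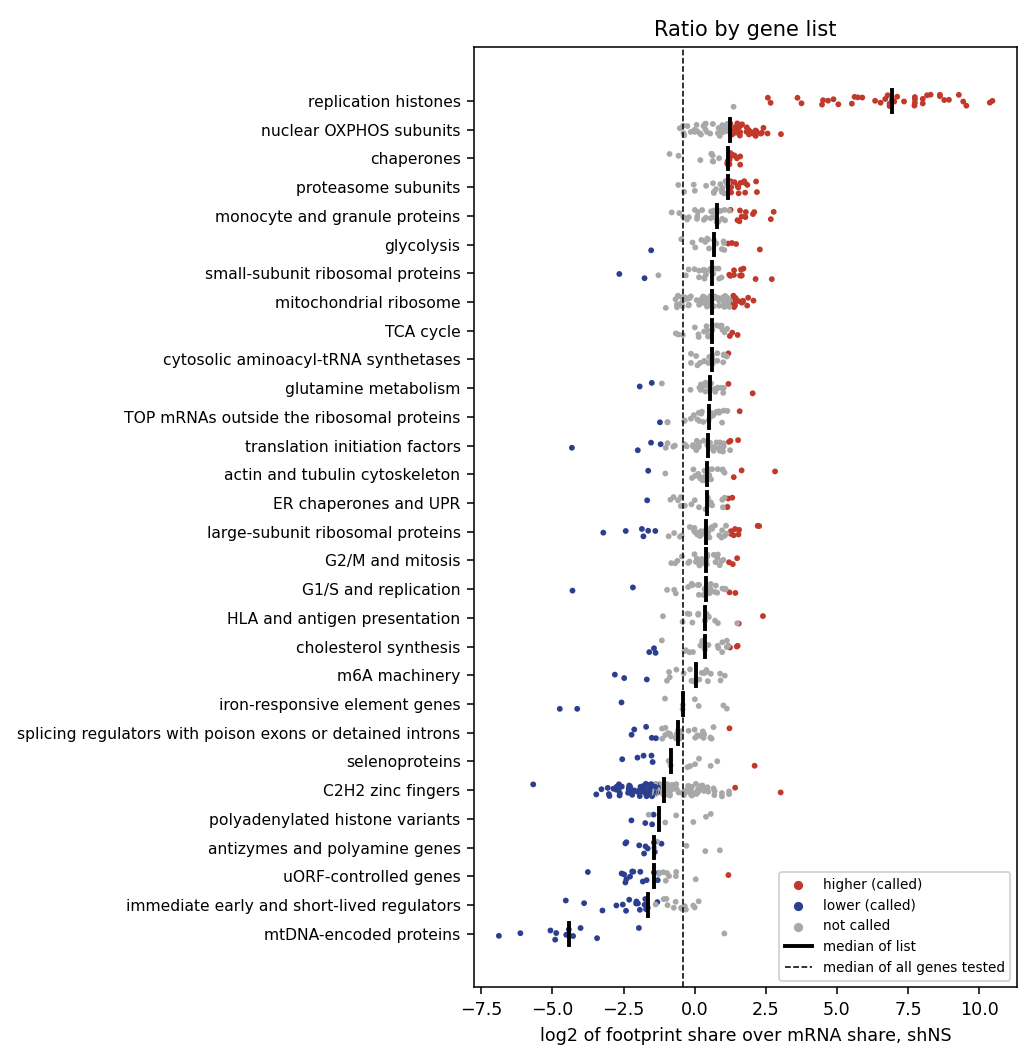
Ratio of each tested gene of 30 lists in shNS, ordered by list median. Points are genes (red called higher, blue called lower, grey not called), black bars are list medians, and the broken line is the median of all genes, −0.43. Medians run from −4.42 for mtDNA-encoded proteins to 6.93 for replication histones.

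Of 37 monocyte and granule genes 11 were higher, none lower and 26 not called, with a median of 0.77, beside 4.96% higher among all genes. LYZ, the antibacterial enzyme lysozyme, had 51413 and 50993 in footprints, against 89375 and 87528 in mRNA. This was 1.05% and 1.15% of all footprints, against 0.394% and 0.383% of all mRNA values (ratio 1.50 ± 0.06, adjusted p = 0.000345). SRGN, the proteoglycan that packs granules, had 60025 and 57665 in footprints, against 69976 and 69432 in mRNA, a ratio of 2.05 ± 0.05 (adjusted p = 8.09e-06). SRGN was chosen after its values were seen. The calcium-binding proteins S100A4 and S100A6 had ratios of 2.78 ± 0.07 (adjusted p = 5e-06) and 2.67 ± 0.06 (adjusted p = 4.54e-06). The surface receptors CD33 at −0.81 ± 0.08 and CSF1R at 0.97 ± 0.28 and the lysosomal protein CD68 at −0.54 ± 0.12 were not called. Of 16 tested HLA and antigen presentation genes 2 were higher and none lower (median 0.36), with HLA-DRA, the constant chain of HLA-DR, at 2.40 ± 0.08 (adjusted p = 2.33e-05). Among 26 cytoskeleton genes 3 were higher and 1 lower, beside 4.96% higher and 21.5% lower among all genes. ACTB was not called at 0.50 ± 0.05, and TMSB4X, which binds free actin, was lower at −1.63 ± 0.07 (adjusted p = 0.000245).

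Many C2H2 zinc finger genes, mostly repressors of transcription, had low ratios. Of the 133 tested on the list 52 were lower and 2 higher, with a median of −1.09, beside 21.5% lower among all genes. Over all 307 tested genes whose symbol is ZNF and a number, 94 were lower and 3 higher, with a median of −0.83. ZNF664 had only 8 and 22 in footprints, against 3480 and 3711 in mRNA, a ratio of −5.67 ± 0.43 (adjusted p = 0.000164). ZNF146 had 217 and 232 in footprints, against 7844 and 8115 in mRNA, a ratio of −2.85 ± 0.09 (adjusted p = 9.06e-06), and was chosen after its values were seen. The higher members were ZNF460 at 3.02 ± 0.15 (adjusted p = 6.65e-05) and ZNF622 at 1.42 ± 0.11 (adjusted p = 0.0188). ZNF622 is related to a yeast factor of ribosome assembly. Its adjusted p was 0.118 without the second mRNA library, and from 1.45e-10 to 0.118 over 15 alternatives. Splicing regulators lay near all genes, with 5 of 33 lower, 1 higher and a median of −0.58, beside −0.43 for all genes. The lowest were PNISR at −2.22 ± 0.06 (adjusted p = 9.96e-06) and OGT, the enzyme that adds GlcNAc to nuclear proteins and keeps a detained intron, at −2.12 ± 0.06 (adjusted p = 1.06e-05). The sources used here do not say whether intron-containing RNA was counted as mRNA.

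P2RY1, a receptor for ADP, had 171 and 146 in footprints, against 8995 and 9114 in mRNA, a ratio of −3.54 ± 0.06 (adjusted p = 8.89e-07). BMI1, the Polycomb protein of self-renewal, was chosen after its values were seen, with 153 and 114 in footprints against 6583 and 7012 in mRNA, a ratio of −3.38 ± 0.10 (adjusted p = 6.51e-06). Among 29 G1/S genes 2 were lower, 2 higher and the rest not called, with 21 above 0 (median 0.40). Among all genes 21.5% were lower and 4.96% higher, and 3618 of 9991 lay above 0. E2F1, which switches on S phase genes, had 12 and 8 in footprints, against 1038 and 1037 in mRNA (ratio −4.29 ± 0.20, adjusted p = 2.45e-05). G2/M genes had 3 of 29 higher and none lower (median 0.41).

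Of 23 tested glutamine genes 2 were higher and 2 lower, with a median of 0.52, and 19 lay above 0. The shares among all genes were 4.96% higher and 21.5% lower. IGF2BP2, the gene targeted in the study, had a ratio of 0.16 ± 0.06 in shNS and was not called. SLC1A5, the main glutamine importer, had 2824 and 2433 in footprints, against 11606 and 11282 in mRNA, a ratio of 0.17 ± 0.05 that was not called. OAT, which links ornithine to glutamate, was higher at 2.04 ± 0.07 (adjusted p = 5.15e-05), and SLC38A2, an amino acid carrier, was higher at 1.18 ± 0.05 (adjusted p = 0.0135). The SLC38A2 call was lost without the first mRNA library (adjusted p = 0.218) or the second (0.0638), and its adjusted p ran from 1.84e-06 to 0.218 over 15 alternatives. SLC7A5, which exchanges glutamine for leucine, was lower at −1.93 ± 0.07 (adjusted p = 7.23e-05). GPT2, the mitochondrial alanine transaminase, was lower at −1.51 ± 0.10 (adjusted p = 0.0048). Its adjusted p was 0.0916 without the first mRNA library, and from 2.61e-12 to 0.652 over 15 alternatives. Of 22 tested m6A genes 3 were lower and none higher (median 0.06), beside 21.5% lower and a median of −0.43 among all genes. RBM15B, which guides the m6A writer, was at −2.80 ± 0.15 (adjusted p = 1e-04), and the eraser ALKBH5 was at −2.48 ± 0.17 (adjusted p = 0.000412).

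Smaller lists held members on both sides. Cholesterol synthesis had 3 of 24 genes higher and 3 lower (median 0.35). INSIG1, a sterol-regulated protein of the ER membrane, was lower at −1.43 ± 0.06 (adjusted p = 0.0012). Selenoproteins are made by reading a UGA codon as selenocysteine. Of 15 tested 5 were lower and 1 higher (median −0.84), beside 21.5% lower and 4.96% higher among all genes. GPX4, which repairs lipid peroxides, was lower at −1.52 ± 0.07 (adjusted p = 0.000856), GPX1 was not called at −0.92 ± 0.05, and SELENOK was the higher one at 2.11 ± 0.11 (adjusted p = 0.000192). ER chaperones had 3 of 22 higher and 1 lower (median 0.42).

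The ratio was lower where the GC content after the transcript start was higher. The GC content was counted over the 50 genomic bases after the start, in the 5880 tested genes with 1 start listed in RefSeq, and these bases can include the first intron. Where it was under 50% the 211 genes had a median ratio of 0.28, and from 50 to under 60% the 900 genes had 0.02. From 60 to under 70% the median was −0.12 (2201 genes), from 70 to under 80% it was −0.56 (1984 genes), and at 80% and over it was −1.30 (584 genes). In this last class 276 genes, or 47.3%, were lower and 1 was higher, while under 50% 12.8% were lower and 15.6% higher. Without the replication histones the shares under 50% were 13.8% lower and 8.72% higher. Across genes Spearman's rho was −0.320 and Pearson's r −0.323 (n = 5880, a description of genes that share their libraries). The first 30 bases of 4 named genes are shown with G and C in capitals, 2 from the highest GC class and 2 from 50 to under 60% (RefSeq, GRCh38.p14). ZNF664 lies at chr12:123973215-123973244 on the plus strand, SLC7A5 at chr16:87869478-87869507 on the minus strand, S100A4 at chr1:153545777-153545806 on the minus strand and PSMB3 at chr17:38752741-38752770 on the plus strand.
ZNF664: GCGCtGtCCCCCGGaGGCGtCtGGGtGtGC
SLC7A5: aCGCaGCtGCGGGCGGCGGGCGGCGCGCaC
S100A4: attCttCCCCtCtCtaCaaCCCtCtCtCCt
PSMB3: aGCaGtGaGaGCGGttGCGCaGtGaaGGCt
ZNF664 and SLC7A5, each with 84.0% GC over the 50 bases, were lower, and S100A4 with 50% and PSMB3 with 54.0% were higher. Single genes departed from the gradient. OGT, with 42.0%, was lower, and NDUFB2, with 74.0%, was higher. The gradient was present with each knockdown hairpin, where the class at 80% and over had a median of −1.10 with shBP2-1 and −1.10 with shBP2-2, and the class under 50% had 0.06 with shBP2-1 and 0.00 with shBP2-2. When the first listed start of every one of the 8308 matched genes was used, the class under 50% had a median of −0.30, below the −0.16 of the next class and the −0.19 of the third, so the medians then fell only from 50% upwards. Without the replication histones, the genes with 1 listed start had medians of 0.19 under 50% and 0.00 from 50 to under 60%. With the first listed start of every gene these medians were −0.35 and −0.17. The GC content of the sequenced fragments was not measured.

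**Figure D4:**
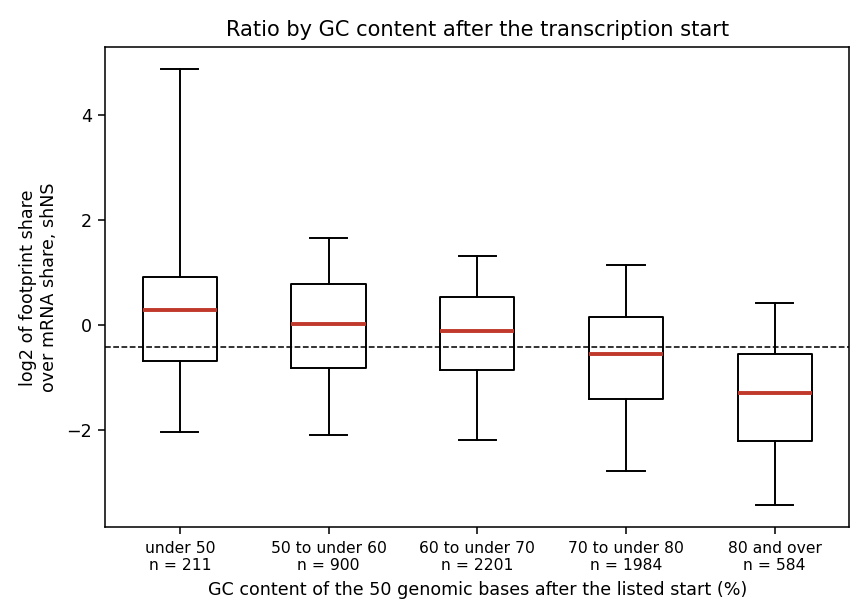
Ratio in shNS by GC content of the 50 genomic bases after the listed start, for 5880 genes with 1 start. Boxes give the middle 50% with the median in red, whiskers run from the 5th to the 95th percentile, and the broken line is the median of all 9991 genes. The median goes from 0.28 in the lowest class to −1.30 in the highest.

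The same ratio was then read in the 8 knockdown libraries, whose values set neither the minimum nor the order of the genes. These libraries came from the same 2 assays, so a shared sign cannot tell loading from an effect of the assays. The fit over both hairpins called 628 genes higher, or 6.29%, and 1935 lower, or 19.4%. Of the 496 genes higher in shNS 349 were called higher there too and 493 had the same sign. Of the 2152 lower in shNS 1479 were called lower and 2149 had the same sign, and no gene was called in opposite directions. Over the 9991 genes Pearson's r with the shNS ratios was 0.849 for shBP2-1 and 0.892 for shBP2-2, as a description. FTL had ratios of −3.38 with shBP2-1 and −4.04 with shBP2-2, beside −4.74 in shNS. ATF4 had −3.52 with shBP2-1 and −3.53 with shBP2-2, beside −3.75 in shNS, and LYZ had 1.55 with shBP2-1 and 1.57 with shBP2-2, beside 1.50 in shNS. The list medians in the plot of ratio by list had the same sign with both knockdown hairpins as in shNS, except that of the m6A machinery. It was −0.13 with shBP2-1 and −0.37 with shBP2-2, beside 0.06 in shNS. Nuclear oxidative phosphorylation genes had 1.17 with shBP2-1 and 1.32 with shBP2-2, beside 1.24 in shNS, and immediate early genes had −1.03 with shBP2-1 and −1.07 with shBP2-2, beside −1.65 in shNS. Small-subunit ribosomal proteins had 1.09 with shBP2-1 and 1.24 with shBP2-2, beside 0.61 in shNS. E2F1 was at −0.87 with shBP2-1 and −2.75 with shBP2-2, beside −4.29 in shNS. Its footprint values were low, with a sum of 27 over the knockdown footprint libraries and 12 and 8 in shNS. H2AC19 moved as well, with −1.86 with shBP2-1 and −0.63 with shBP2-2, beside 2.57 in shNS. Differences between the hairpins were not tested here.

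**Figure D5:**
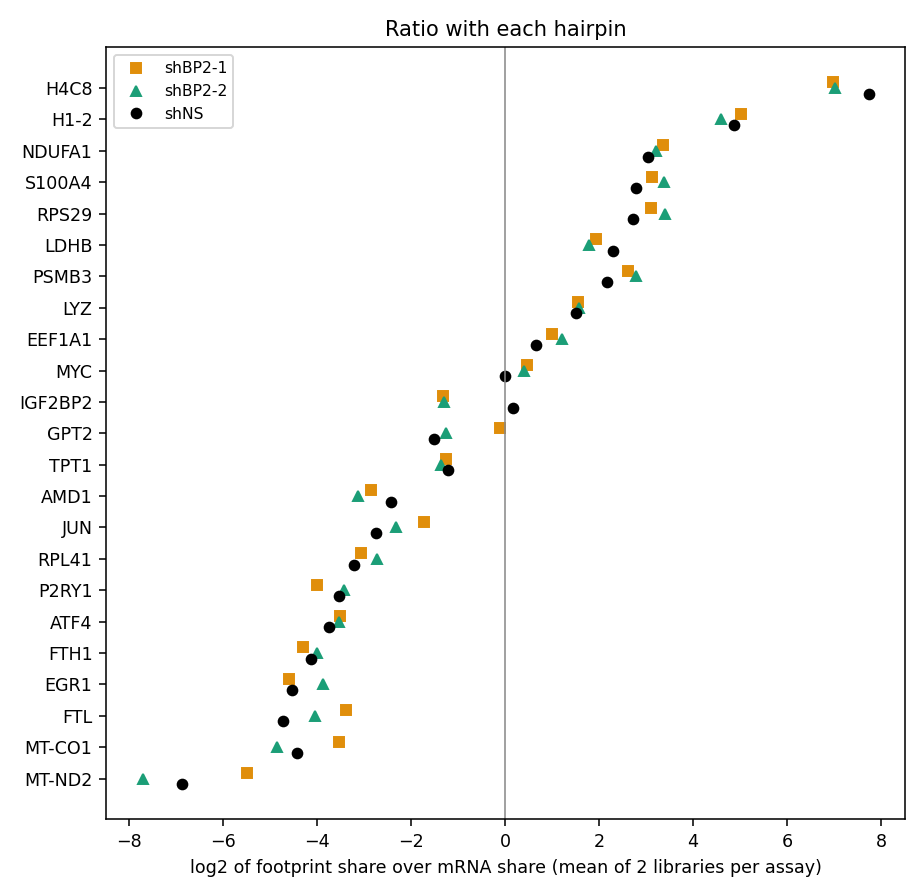
Ratio of 23 genes with shBP2-1 (squares), shBP2-2 (triangles) and shNS (circles), each from the means of 2 footprint and 2 mRNA libraries. Most genes keep their side of 0 with all 3 hairpins, and IGF2BP2, the target of both knockdown hairpins, has 0.16 in shNS and lies below 0 with the others.

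Genes outside the minimum were mainly of low mRNA. There were 2201 genes that met it for mRNA alone, with a median mRNA value of 44.5, beside 1004 among the genes tested. In 25 of them the mRNA value averaged 1000 or more. HIGD1A, a mitochondrial protein induced by low oxygen, had 0 and 3 in footprints against 1698 and 1903 in mRNA. NPIPB5, of a recently duplicated family, had 0 and 1 against 4316 and 4277, and reads that match several copies make such entries uncertain. Only 123 genes met the minimum for footprints alone, and 14 of them were replication histones, such as H3C13 with 2822 and 2776 in footprints against 4 and 1 in mRNA.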

How the data were processed

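The authors deposited a table of scores, 1 for each gene in each library, described as normalized read counts and given as whole numbers. Neither the labels nor the file header say how they were normalized. The submitters' processing notes list FastQC, cutadapt, Bowtie, STAR, RSEM and the build hg38, without versions or roles. Per the labels, mRNA libraries were stranded and footprint libraries were depleted of ribosomal RNA. Because the scores are described as normalized in a way that is not stated, no count model was used.

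Each score plus a pseudocount of 1 was divided by its library total and taken to log2. limma 3.58.1 in R 4.3.3 (lmFit, then treat with a mean-variance trend, two-sided) tested footprints minus mRNA against a 2-fold difference in the 4 shNS libraries, which left 2 residual degrees of freedom. A gene was called at an adjusted p under 0.05 (Benjamini-Hochberg) among the 9991 genes with a mean of at least 10 in both pairs. The pseudocount weighs more against the smaller footprint totals, so it shifts the ratios of low genes, mostly upward. The median ratio was −0.435 with a pseudocount of 0.5, −0.428 with 1 and −0.352 with 5. Nothing says that replicates were separate cultures, so p-values measure only the spread between these libraries. Each gene list was described by its counts and its median.

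Named were a fixed set of genes, the 15 highest and 15 lowest called protein-coding genes with means of at least 100 and 1 sign in all pairings, and the 2 highest and 2 lowest of each list with at least 5 tested genes. SRGN, FOS, COX6C, BMI1 and ZNF146, and the untested genes given with values, fall outside that rule and were chosen after their values were seen. The members and lists were chosen with earlier results of these data known. Start windows came from RefSeq (GRCh38.p14), matched by symbol for 8308 tested genes, and figures were drawn with matplotlib 3.10.9. Alternative scalings, pseudocounts, minimums, nulls and weights, a replicate block and leaving out each library were tried.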

Additional observations from a re-analysis of the deposited data

Results flagged for a closer look

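For 2 named genes every pairing of a footprint with an mRNA library had one sign in shNS and the opposite sign with both knockdown hairpins, and this difference was not tested. The pairings of IGF2BP2, the gene that the knockdown hairpins target, ran from −1.78 to −0.88 with shBP2-1 and from −1.43 to −1.18 with shBP2-2, against 0.11 to 0.21 in shNS, where the ratio was 0.16. Its footprint values were only 2 and 4 with shBP2-1 and 20 and 33 with shBP2-2, against 575 and 526 in shNS. The pairings of the replication histone gene H2AC19 ran from −2.25 to −1.46 with shBP2-1 and from −1.14 to −0.12 with shBP2-2, against 1.61 to 3.54 in shNS, where the ratio was 2.57. Its footprint values summed to 34 over the 4 knockdown footprint libraries, against 294 and 164 in the 2 shNS ones. H2AC19 is near-identical to other histone genes, so the assignment of its reads is uncertain. Groups of 2 libraries are too small to test single libraries for standing apart.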

How the results depend on the processing

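On library totals limma called 2648 genes in shNS and 2563 in the knockdown libraries. Median-ratio factors with the median gene at 0 moved all ratios up by 0.43 and gave 1074 higher and 1284 lower in shNS and 1133 higher in the knockdown libraries. A minimum mean of 50 left 7351 genes tested and 1639 called, of which 1196 were lower. Testing against no difference called 7752 genes in shNS, 2575 higher and 5177 lower, and 7617 in the knockdown libraries, 2720 higher and 4897 lower. A pseudocount of 5 gave 978 higher and 1306 lower in the knockdown libraries, where footprint totals are lowest, beside 628 and 1935 with a pseudocount of 1. The causes of the shifts between settings were not tested. Without 1 library at a time 2029 to 3316 genes were called in shNS and 2201 to 2717 in the knockdown libraries. Such a fit leaves 1 library in an arm and assumes that it varies like the other arm. H4C11 went to −3.79 without the first shNS footprint library and to 6.53 without the second, so 1 library decides its value. A replicate block called 2755 genes in shNS and 2540 in the knockdown libraries and changed no call of the 96 named genes. The difference of replicate 1 from replicate 2 in footprints had a correlation across genes of 0.02 with that in mRNA. This value cannot show whether same-numbered libraries share a culture, which the labels do not state. A fit over all 12 libraries called 2104 genes and ended the calls of DDIT3, EPRS1, GPT2 and SLC38A2, and totals without mtDNA genes ended those of EPRS1 and SLC38A2. Ratios per coding and transcript length, and medians by protein length, were not run, because no lengths or proteins were used here. Of 150 list medians recomputed under other scalings or minimums 69 moved by more than the replicate spread. Footprint depth limits low genes, such as BTG2 and E2F1.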
